A study of Mus musculus with 18 samples.

Results

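The genes described here make superoxide in phagocytes or remove superoxide and hydrogen peroxide, and were taken by symbol from both expression tables of the series: Cybb, Cyba, Ncf1 and Ncf4 of the NADPH oxidase, the superoxide dismutase genes Sod1, Sod2 and Sod3, the catalase gene Cat and the glutathione peroxidase gene Gpx1. All 9 symbols had a row in both tables, of 21441 genes in each. RNA-seq was done on 9 libraries of RAW264.7 cells, a macrophage-like mouse cell line, and on 9 libraries of liver from male wild type C57BL/6 mice, with 3 control, 3 LPS and 3 LPS+MIC-1 libraries in each. LPS, lipopolysaccharide from the envelope of Gram-negative bacteria, activates macrophages, and MIC-1 is moringa isothiocyanate-1, the main isothiocyanate of moringa seeds. The mice were in groups of 6, 3 of which were sequenced per group by the study's account. LPS mice received 10 mg/kg LPS into the peritoneum and livers were taken 16 h later. LPS+MIC-1 mice received in addition 80 mg/kg MIC-1 in 10% DMSO by gavage for 3 days beforehand, and control mice received vehicle and saline. For the cultures the series' design text gives 10 µM MIC-1, while the sample labels repeat the doses of the mouse experiment. The age of the mice and the LPS concentration of the sequenced cultures are not given in the sources used here. RAW264.7 is a single transformed line and stands in for macrophages only as such.

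The phagocyte NADPH oxidase moves electrons from NADPH across a membrane onto oxygen and so makes superoxide. Cybb encodes its catalytic subunit gp91phox and Cyba its partner p22phox; together they form the membrane-bound cytochrome b558. Ncf1 (p47phox) and Ncf4 (p40phox) encode cytosolic subunits that join it on activation. Superoxide dismutases turn superoxide into hydrogen peroxide, Sod1 mainly in the cytosol, Sod2 in mitochondria and Sod3 outside the cell. Catalase in peroxisomes and the selenoprotein Gpx1, which uses glutathione, then remove hydrogen peroxide. Hepatocytes are rich in catalase, and the phagocyte oxidase of liver is known mainly from its resident and infiltrating phagocytes.

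RefSeq promoter sequences were at hand for 7 of the 9 genes. The 250 bases before the start of Cybb, Cyba, Ncf1, Sod2 and Cat are shown. Cyba, Ncf1, Sod2 and Cat are the genes with such a window that passed between LPS and control in both macrophages (8 libraries) and liver, and Cybb is the catalytic partner of Cyba. They are written 5′ to 3′ on the gene's strand. The capitals mark matches, on either strand, to the motifs spelled out after the sequences.
Cybb: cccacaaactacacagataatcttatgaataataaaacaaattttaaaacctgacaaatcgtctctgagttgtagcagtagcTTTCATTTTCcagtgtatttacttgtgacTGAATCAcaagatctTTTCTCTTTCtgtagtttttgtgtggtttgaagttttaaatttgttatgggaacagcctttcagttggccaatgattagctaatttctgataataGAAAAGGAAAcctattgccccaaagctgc
Cyba: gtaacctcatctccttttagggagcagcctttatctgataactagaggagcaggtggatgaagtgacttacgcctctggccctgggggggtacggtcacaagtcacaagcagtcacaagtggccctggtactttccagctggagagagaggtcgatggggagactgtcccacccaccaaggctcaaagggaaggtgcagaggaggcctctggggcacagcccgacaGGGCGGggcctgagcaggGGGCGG
Ncf1: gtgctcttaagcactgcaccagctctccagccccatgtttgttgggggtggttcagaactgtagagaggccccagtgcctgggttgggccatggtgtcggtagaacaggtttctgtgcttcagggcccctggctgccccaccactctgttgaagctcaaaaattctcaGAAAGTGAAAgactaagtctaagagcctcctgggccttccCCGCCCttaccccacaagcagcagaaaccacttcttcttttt
Sod2: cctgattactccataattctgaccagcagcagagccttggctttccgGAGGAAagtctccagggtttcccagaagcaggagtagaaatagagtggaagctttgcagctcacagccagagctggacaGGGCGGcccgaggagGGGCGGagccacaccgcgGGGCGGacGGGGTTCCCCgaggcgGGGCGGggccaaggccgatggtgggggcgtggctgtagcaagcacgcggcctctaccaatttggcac
Cat: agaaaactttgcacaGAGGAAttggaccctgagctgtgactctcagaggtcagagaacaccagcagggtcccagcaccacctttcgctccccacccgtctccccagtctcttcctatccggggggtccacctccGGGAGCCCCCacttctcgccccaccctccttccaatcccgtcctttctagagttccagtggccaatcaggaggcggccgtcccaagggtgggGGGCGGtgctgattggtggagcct

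The sequences come from the RefSeq table of GRCm38.p6, and each was placed by exact match on the older build NCBIM37, which corresponds to the authors' mm9. There they lie at chrX:9046451-9046700 (Cybb, minus strand), chr8:124956841-124957090 (Cyba, minus), chr5:134705496-134705745 (Ncf1, minus), chr17:13200455-13200704 (Sod2, plus) and chr2:103325311-103325560 (Cat, minus). On the same build the genes span chrX:9012378-9064897 (Cybb), chr8:124948672-124956840 (Cyba), chr5:134695923-134705495 (Ncf1), chr15:78075231-78093010 (Ncf4), chr16:90220987-90226567 (Sod1), chr17:13200705-13210985 (Sod2), chr5:52755185-52762644 (Sod3), chr2:103294006-103325317 (Cat) and chr9:108241607-108242671 (Gpx1). The windows overlap no annotated exon except that of Cat, whose last 7 bases are exonic in the annotation of that build. The Cybb window lies within the annotated gene, which has longer transcripts starting upstream of it. Of the motifs searched, GAAA followed after any 2 bases by GAAA, a pattern bound by interferon regulatory factors, stood at 3 places before Cybb and 1 before Ncf1, and 2.98% of the 32851 promoter windows in the table held it. TGANTCA, the AP-1 pattern (6.75% of windows), stood before Cybb. The NF-κB consensus (7.25%) stood before Sod2, Cat and, among the windows not shown, Gpx1. GAGGAA, the core bound by PU.1 (23.3%), stood before Sod2 and Cat, and TGACNNNGC, the core of the antioxidant response element (10.2%), before Sod1 only. GGGCGG, the GC box (32.7%), stood before Cyba, Ncf1, Sod1, Sod2 and Cat. The motifs do not overlap each other in these windows except for neighbouring GC boxes of Sod1. A match is a run of letters in this window and no measured binding site.

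Columns were named by treatment alone, and a library's number here is its place among the columns of its treatment. From the steps between low values the depth was estimated at 18.7 to 24.2 M reads per macrophage library, at 12.4 to 19.2 M in the treated liver libraries and at 10.7, 4.85 and 4.75 M in the liver controls. Macrophage LPS library 2 was closest to control library 2, with a median absolute difference of 0.0732 in log2(FPKM + 0.5) against 0.695 and 0.696 to the other LPS libraries. The study's macrophage heat map used 8 libraries with 2 of LPS, and the macrophage tests here rest on 8 libraries without LPS library 2, with all 9 beside them. Which LPS library the study left out is inferred from the values. Libraries 1 and 3 were close to each other in each macrophage treatment and in liver LPS and LPS+MIC-1 (squared differences of 2.44 to 12.7 times the sampling variance), and control library 2 and LPS library 2 of the macrophages were as close (2.48 times). All exceed sampling noise, and the libraries were counted separately. In liver, LPS library 2 and LPS+MIC-1 library 2 were each closer to one another (0.313) than to any library of their own treatment (0.529 and 0.552 for LPS, 0.350 and 0.351 for LPS+MIC-1). The labelled cell types held: Lyz2, the macrophage lysozyme, was at 8726 to 10746 FPKM in the RAW264.7 libraries while the hepatocyte marker Hnf4a was at 0 in all of them, and albumin (Alb) was at 13740.1 to 35991 FPKM in liver. Ly6c2 and Clec4f, markers of inflammatory monocytes and Kupffer cells, were at or near 0 in RAW264.7.

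The values are FPKM, fragments per kilobase of transcript and unit of depth, which the authors scaled between the libraries of a table. Differences (Log2FC) are of log2(FPKM + 0.5), a scale that understates the change of genes with low values. A gene passed where limma over all genes with a mean FPKM above 1 (9905 in macrophages and 10147 in liver) gave a Benjamini-Hochberg adjusted p-value below 0.05. The labels do not say that the macrophage libraries came from separate cultures, so p-values measure only the spread between these libraries, which may be technical.

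In macrophages the comparison of LPS with control asks how the oxidase and its counterparts responded to the stimulus. Over the 8 libraries, 6 of the 8 tested genes passed and all 6 were higher with LPS: the 4 oxidase subunits, Sod2 and Cat, of which Ncf1, Ncf4 and Cat turned lower when every library was scaled to an equal sum. Sod1 and Gpx1 did not pass. In this comparison 75.2% of all tested genes passed (36.9% higher and 38.2% lower). Of 8 genes listed as a check of the LPS response, 4 passed as higher with LPS (Il1b, Ccl5, Nos2 and Il6). Cxcl10 and Saa1 passed as lower, and Tnf and Saa2 did not pass. Ccl5 was at 46.7 to 101 FPKM in the controls and at 24673, 115 and 25371 in LPS libraries 1 to 3. Il1b was at 1.84 to 5.83 FPKM in the controls and at 214, 4.87 and 227 in these libraries. Over all 9 libraries none of the members passed, nor did any other gene (0% passing, 49.8% with an unadjusted limma p-value below 0.05).

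The membrane subunits had the largest oxidase differences. Cybb was at 196, 265.2 and 207 FPKM in the controls, 623, 268 and 629 in LPS libraries 1 to 3, and 264.96, 185 and 265.2 with LPS+MIC-1. Cyba was at 595, 744 and 572 FPKM in the controls, 1877, 773 and 1928 after LPS and 739, 617 and 721 after LPS+MIC-1. In both genes LPS libraries 1 and 3 were far above every other library, and LPS library 2 was just above the highest control. The Log2FC with LPS over the 8 libraries was 1.50 for Cybb (SE 0.18, 2.83-fold, limma adjusted p = 0.000156) and 1.59 for Cyba (SE 0.13, 3.00-fold, adjusted p = 1.73e-05). Over the 9 libraries they were 1.09 and 1.15, both with adjusted p = 0.0777.

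The cytosolic subunits differed by less. Ncf1 was at 164, 174 and 168 FPKM in the controls, 258, 173 and 250.02 after LPS and 138, 126 and 132 after LPS+MIC-1, so that its lowest values were those with MIC-1. Ncf4 was at 141, 167 and 144 FPKM in the controls, 287, 157 and 281 after LPS and 245, 261 and 247 after LPS+MIC-1. With LPS the Log2FC was 0.59 for Ncf1 (SE 0.062, limma adjusted p = 6.88e-05) and 0.92 for Ncf4 (SE 0.082, adjusted p = 2.89e-05) over the 8 libraries, and 0.41 and 0.63 over the 9 (adjusted p = 0.0832 and 0.0777). LPS library 2 lay within the range of the controls for both genes.

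Among the removal genes Sod2, the mitochondrial dismutase, had the largest difference. It was at 60.9, 94.3 and 62.5 FPKM in the controls, 308, 92.7 and 289.7 after LPS and 213, 172 and 203 after LPS+MIC-1. The groups did not overlap over the 8 libraries, as for 42.2% of all genes in this direction, and the Log2FC with LPS was 2.06 (SE 0.19, 4.18-fold, limma adjusted p = 3.31e-05); over the 9 it was 1.50 (adjusted p = 0.0777). Cat differed little, from 26.0, 28.0 and 27.8 FPKM in the controls to 35.2, 30.4 and 35.6 after LPS, where all 3 LPS libraries were above all controls. Its Log2FC of 0.37 (SE 0.12, adjusted p = 0.0207) no longer passed without control library 1 (0.34, adjusted p = 0.0611), without LPS library 1 (0.38, 0.0773), without LPS library 3 (0.36, 0.085) or over the 9 libraries (0.30, 0.107).

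Sod1, the most abundant dismutase transcript in control macrophages, was at 493, 490.03 and 453 FPKM in the controls and 509, 506 and 508 after LPS, a Log2FC of 0.087 with a 95% interval from -0.29 to 0.46 that did not pass. Gpx1 was at 448, 447 and 437 FPKM in the controls and 398, 449 and 395 after LPS, with LPS library 2 above all controls. Its Log2FC of -0.16 (SE 0.14, limma adjusted p = 0.30) passed without LPS+MIC-1 library 2, which enters only the shared estimate of the spread (adjusted p = 0.00642). Sod3, the extracellular dismutase, was listed at 0 in 8 macrophage libraries and at 0.0239 FPKM in control library 2, which corresponds to about 1.81 reads, and was not tested.

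These directions depend on the scaling between libraries. The FPKM of all genes summed to 557136 to 592848 in the macrophage controls, to 1137530, 598270 and 1132900 in LPS libraries 1 to 3 and to 647770 to 652486 with LPS+MIC-1, and the 81 ribosomal protein genes held 105623 to 122898 of these in control, 251069, 122797 and 260196 in LPS libraries 1 to 3 and 96124 to 98714 with LPS+MIC-1. With FPKM rescaled to the same sum, the median Log2FC of all genes between LPS and control moved from -0.025 to -0.93, and the share of higher genes among those that passed from 49.1 to 14.3%. Cybb (0.51), Cyba (0.60) and Sod2 (1.07) were then still higher with LPS and passed, while Ncf1 (-0.40), Sod1 (-0.90), Cat (-0.61) and Gpx1 (-1.15) passed as lower and Ncf4 was at -0.072. Relative to the median of all genes the values under this scaling were 1.44 for Cybb, 1.53 for Cyba, 0.53 for Ncf1, 0.86 for Ncf4, 2.00 for Sod2, 0.33 for Cat, 0.027 for Sod1 and -0.22 for Gpx1.

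**Figure D1:**
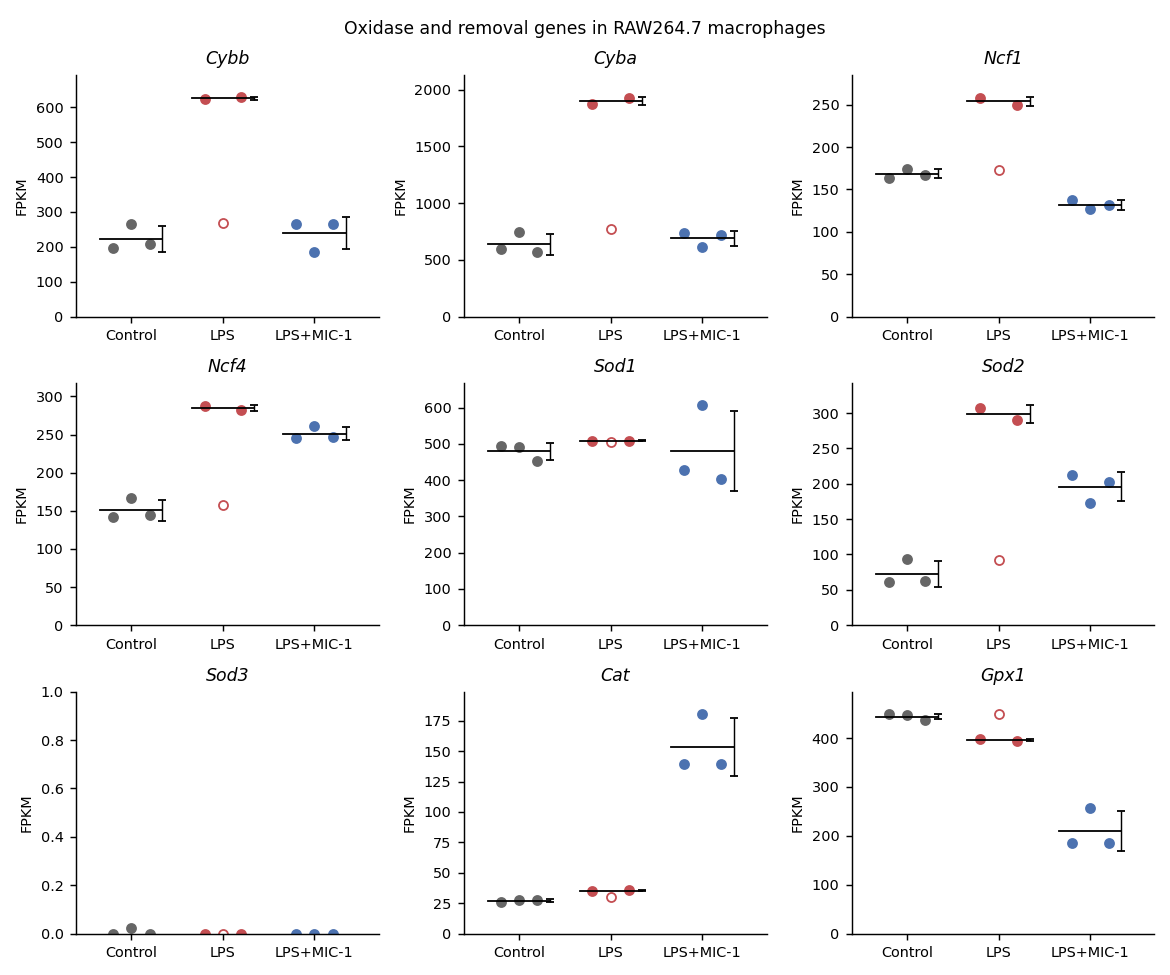
FPKM of the 9 genes in each RAW264.7 library (points, libraries 1 to 3 from left to right within a treatment; the open point is LPS library 2), with the mean (line) and SD (bar) of the 8 libraries. LPS libraries 1 and 3 stand above all other libraries for Cybb, Cyba, Ncf1, Ncf4 and Sod2 on the authors' scaling (rescaled to an equal sum, the Log2FC of Ncf1 and Ncf4 turns to -0.40 and -0.072), Cat stands at 139 to 181 FPKM in the LPS+MIC-1 libraries, and Sod3 is at or near 0 and has no mean drawn.

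The comparison of LPS+MIC-1 with LPS asks how the libraries with MIC-1 differed from those with LPS alone. Over the 8 libraries, 6 of the 8 tested genes passed, against 68% of all tested genes (34% higher, 34.1% lower): Cat was higher with MIC-1, and Cybb, Cyba, Ncf1, Sod2 and Gpx1 were lower, of which Sod2 turned higher with an equal sum. Over the 9 libraries Cat, Ncf1 and Gpx1 passed, in the same directions, against 21.6% of all genes (10.2% higher, 11.4% lower). Of the 8 LPS response genes, Tnf, Il6 and Saa1 passed as higher with LPS+MIC-1 over the 8 libraries, Ccl5 and Cxcl10 as lower, and 3 did not pass. Ccl5 was at 464, 219 and 461 FPKM with LPS+MIC-1. Whether the stimulus acted alike in both treatments was not tested.

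Cat had the largest difference of the members. It was at 139, 181 and 139 FPKM in the LPS+MIC-1 libraries, all above the highest LPS value of 35.6 and the highest control of 28.0. The mean went from 35.4 ± 0.229 FPKM with LPS (SD, n = 2) to 153 ± 24.0 with LPS+MIC-1 (SD, n = 3), a Log2FC of 2.09 (SE 0.12, 4.25-fold, limma adjusted p = 6.62e-06), and of 2.16 over the 9 libraries (adjusted p = 0.000486). Scaling to an equal sum left it higher, at 2.88. Over the 9 libraries 18.2% of all genes were separated downwards between LPS+MIC-1 and LPS. The upward share was not counted, nor were the shares for LPS+MIC-1 against control. Gpx1 went the other way from Cat. It was at 186, 257 and 186 FPKM with LPS+MIC-1, below every LPS and control library, and its Log2FC was -0.93 (SE 0.14, adjusted p = 0.000546) over the 8 libraries and -0.995 (adjusted p = 0.00436) over the 9. With an equal sum it was -0.13 and did not pass, while the median of all genes moved from 0.012 to 0.74 and the share of higher genes among those that passed from 49.9 to 86.5%.

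The membrane subunits were near the control range with LPS+MIC-1, at 185 to 265.2 FPKM for Cybb against 196 to 265.2 in control and at 617 to 739 for Cyba against 572 to 744. Cybb differed from LPS by -1.41 (SE 0.18, 0.376 times the LPS level, limma adjusted p = 0.000304) and Cyba by -1.46 (SE 0.13, 0.363 times, adjusted p = 3.96e-05) over the 8 libraries. Over the 9 the values were -1.003 and -1.03 (adjusted p = 0.0674 and 0.0629), and the groups did not overlap, since both genes had their lowest LPS value in library 2 and this was above the highest LPS+MIC-1 value; 18.2% of all genes were separated in this direction. Under equal-sum scaling both stayed lower, at -0.61 and -0.66. Ncf1 fell by 0.94 on the log2 scale (SE 0.062, adjusted p = 1.16e-05) and by 0.76 over the 9 libraries (adjusted p = 0.0151), but with an equal sum by 0.14 only, which did not pass.

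Ncf4 did not follow the other subunits. Its Log2FC between LPS+MIC-1 and LPS was -0.18 (SE 0.082, limma adjusted p = 0.0827) over the 8 libraries, 0.10 over the 9 and 0.62 with an equal sum. It passed without control library 2 (adjusted p = 0.0166), at the same Log2FC. Sod2 was 0.655 times the LPS level (Log2FC -0.61, SE 0.19, adjusted p = 0.0211), a call that was lost without LPS library 1 (-0.57, adjusted p = 0.10), LPS library 3 (-0.65, 0.0671) or LPS+MIC-1 library 2 (-0.52, 0.0559) and over the 9 libraries (-0.051, 0.945), and an equal sum turned it to 0.19. Sod1 was at 428, 607 and 403 FPKM with LPS+MIC-1, on both sides of the LPS values. Its Log2FC of -0.11 (95% interval from -0.48 to 0.27) did not pass, and did without LPS+MIC-1 library 2 (-0.29, adjusted p = 0.00505).

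Set against the controls, LPS+MIC-1 left 5 of the 8 tested genes different over the 8 libraries, where 60.3% of all genes passed (28.1% higher, 32.2% lower). Cat was 5.49-fold higher (Log2FC 2.46, SE 0.10, limma adjusted p = 3.38e-06), Sod2 2.73-fold (1.45, SE 0.17, 0.000224) and Ncf4 1.67-fold (0.74, SE 0.073, 0.000105). Ncf1 was 0.783 times the control level (-0.35, SE 0.055, adjusted p = 0.000995) and Gpx1 0.467 times (-1.10, SE 0.12, 0.000172). Cybb (0.092, 95% interval -0.29 to 0.47) and Cyba (0.12, -0.14 to 0.39) did not pass. Cyba did without control library 2 (0.24, adjusted p = 0.0453), as did Sod1 without LPS+MIC-1 library 2 (-0.20, adjusted p = 0.017). Over libraries 1 and 3 alone, a selection made after the values were seen, Cybb (0.40) and Cyba (0.32) also passed. Over the 9 libraries Cat, Sod2, Ncf4 and Gpx1 passed, against 24.8% of all genes (11.8% higher, 13% lower). The 3 comparisons share libraries and are not independent of each other.

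Genes that mark neutrophils were measured in the same libraries. The summed FPKM of the 11 listed genes was 9.12 to 31.4 in the macrophage controls, 248, 31.1 and 254 with LPS and 779 to 917 with LPS+MIC-1, mostly Mmp9 with LPS (215, 25.4 and 210.1 FPKM) and S100a8 with LPS+MIC-1 (651, 676 and 718 FPKM). Other listed genes did not share this rise. S100a9 did not exceed 0.482 FPKM in any of the 9 libraries, nor Retnlg 0.0934 FPKM. Csf3r was at 0.688, 1.74 and 0.818 FPKM in the controls and 0.0962, 0.606 and 0.271 with LPS. With LPS+MIC-1 it was at 1.75, 0.266 and 0.967 FPKM. The granule genes were not alike either. Elane, Mpo and Ngp were at or below 0.132 FPKM in all 9 libraries. Mmp8 did not exceed 0.157 FPKM in any control, but reached 35.7, 21.4 and 35.2 FPKM in LPS+MIC-1 libraries 1 to 3. Its LPS libraries held 1.23, 0.198 and 2.13 FPKM. Camp was at most 0.104 FPKM in the controls and at most 0.957 FPKM after LPS+MIC-1. RAW264.7 is a single cell line, so these values are expression by the line and do not measure a share of neutrophils.

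In liver, LPS against control gave a different set. Of the 9 tested genes 5 passed, against 34.7% of all tested genes: Cyba, Ncf1, Ncf4 and Sod2 were higher with LPS (19.2% of all genes were) and Cat was lower (15.5%). Cybb, Sod1, Sod3 and Gpx1 did not pass. In bulk liver, fewer cells of a type and less RNA per cell cannot be told apart, which holds for all liver values below.

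Cyba had the largest rise, from 9.42, 7.16 and 6.45 FPKM in the controls to 36.4, 49.7 and 42.9 after LPS and 43.2, 60.4 and 43.6 after LPS+MIC-1. Every treated library was above every control, and 24.2% of all genes were separated upwards between LPS and control (20.8% downwards). These shares were not counted for LPS+MIC-1 against control. The Log2FC of Cyba with LPS was 2.42 (SE 0.22, 5.34-fold, limma adjusted p = 0.000483). Its partner Cybb was at 6.67, 5.77 and 4.04 FPKM in the controls, 6.83, 7.33 and 6.11 after LPS and 4.20, 5.56 and 4.48 after LPS+MIC-1, with overlapping control and LPS values. Its Log2FC with LPS was 0.30, with a 95% interval from -0.18 to 0.78 (adjusted p = 0.286). The interval of Cyba ran from 1.92 to 2.92, so those of the 2 cytochrome subunits did not overlap in liver, though the difference between the genes was not itself tested. In macrophages their Log2FC values were 1.50 and 1.59.

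Ncf1 was at 2.03, 3.01 and 2.88 FPKM in the controls, 8.49, 11.3 and 9.80 after LPS and 6.45, 11.1 and 6.10 after LPS+MIC-1. The control and LPS libraries did not overlap, and the Log2FC was 1.73 (SE 0.26, limma adjusted p = 0.00337). Ncf4 was at 0.380, 3.48 and 3.41 FPKM in the controls, 6.25, 11.1 and 6.82 after LPS and 3.77, 7.33 and 6.10 after LPS+MIC-1. Its Log2FC of 1.79 (SE 0.57) barely passed (adjusted p = 0.0397). The call was lost without any one of the treated libraries: without LPS library 1, 2 or 3 the Log2FC was 1.94, 1.55 and 1.88 (adjusted p = 0.0795, 0.0847 and 0.0953), and without LPS+MIC-1 library 1, 2 or 3 it stayed at 1.79 with adjusted p = 0.0528, 0.0517 and 0.0598. Without control library 1, behind whose value lie about 5 reads, the Log2FC was 1.07 and still passed.

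Genes that mark neutrophils were mostly higher with LPS in the same livers. The summed FPKM of 11 neutrophil genes was 37.6 to 53.5 in control, 355 to 453 with LPS and 193 to 465 with LPS+MIC-1, and of the 9 tested 8 were higher with LPS and 1, Cxcr2, was lower. For 8 macrophage and Kupffer cell genes the sums were 46.1 to 85.0, 85.6 to 94.1 and 75.2 to 160, with 1 of 7 tested genes higher and 2 lower with LPS (median Log2FC -0.34, against 0.15 for all genes). The 5 monocyte genes summed to 8.11 to 14.9, then 593, 95.8 and 574, then 74.9, 415 and 80.8 FPKM, with 2 of 4 tested genes higher and none lower with LPS. Cd14 held 569, 84.2 and 552 FPKM of this after LPS and 56.7, 407 and 61.4 after LPS+MIC-1, and Ly6c2 was listed at 0 in control libraries 2 and 3 and in library 2 of LPS and of LPS+MIC-1. The part of these cell types in the oxidase values was not tested. Hepatocyte genes summed to 76939.8, 38899.8 and 40662 FPKM in control libraries 1 to 3, 32222 to 42507 with LPS and 32281 to 41699.9 with LPS+MIC-1. Of the 7 tested, 1 was lower with LPS, 0 were higher and 6 did not pass, where 34.7% of all genes passed. Their median Log2FC was -0.25, against 0.15 for all genes.

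Of the removal genes in liver, Sod2 was at 56.6, 58.1 and 58.1 FPKM in the controls, 206, 149 and 253 after LPS and 131, 248 and 133 after LPS+MIC-1. All treated libraries were above the narrow range of the controls, and the Log2FC with LPS was 1.77 (SE 0.29, 3.42-fold, limma adjusted p = 0.0048). Between LPS and control 24.2% of all genes were separated upwards and 20.8% downwards. Neither share was counted for LPS+MIC-1 against control. Cat, an abundant transcript of hepatocytes, was at 1110, 685 and 814 FPKM in the controls, 120, 321 and 116 after LPS and 313, 192 and 308 after LPS+MIC-1, with every treated library below every control. Its Log2FC with LPS was -2.37 (SE 0.42, 0.194 times the control level, adjusted p = 0.00578), a call that was lost when libraries 1 and 3 of the treated groups were averaged (-2.13, adjusted p = 0.0522).

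Gpx1 was at 573, 202 and 86.8 FPKM in the controls, 1643, 340 and 1824 after LPS and 1561, 869 and 1775 after LPS+MIC-1. LPS library 2 lay below control library 1, and the Log2FC of 2.22 (SE 0.80) did not pass with limma (adjusted p = 0.061); it did without control library 1 (2.92, adjusted p = 0.023) or LPS library 2 (3.00, 0.0127). Sod1, the most abundant member in control liver, was at 1971, 1065 and 1101 FPKM in the controls, 1129, 1472 and 1271 after LPS and 1546, 1578 and 1661 after LPS+MIC-1. Its Log2FC with LPS was -0.043 (95% interval from -0.66 to 0.57). Sod3, which macrophages hardly expressed, was at 21.4, 12.1 and 9.54, then 13.9, 18.8 and 16.9, then 21.7, 10.6 and 24.7 FPKM, with overlapping groups throughout.

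**Figure D2:**
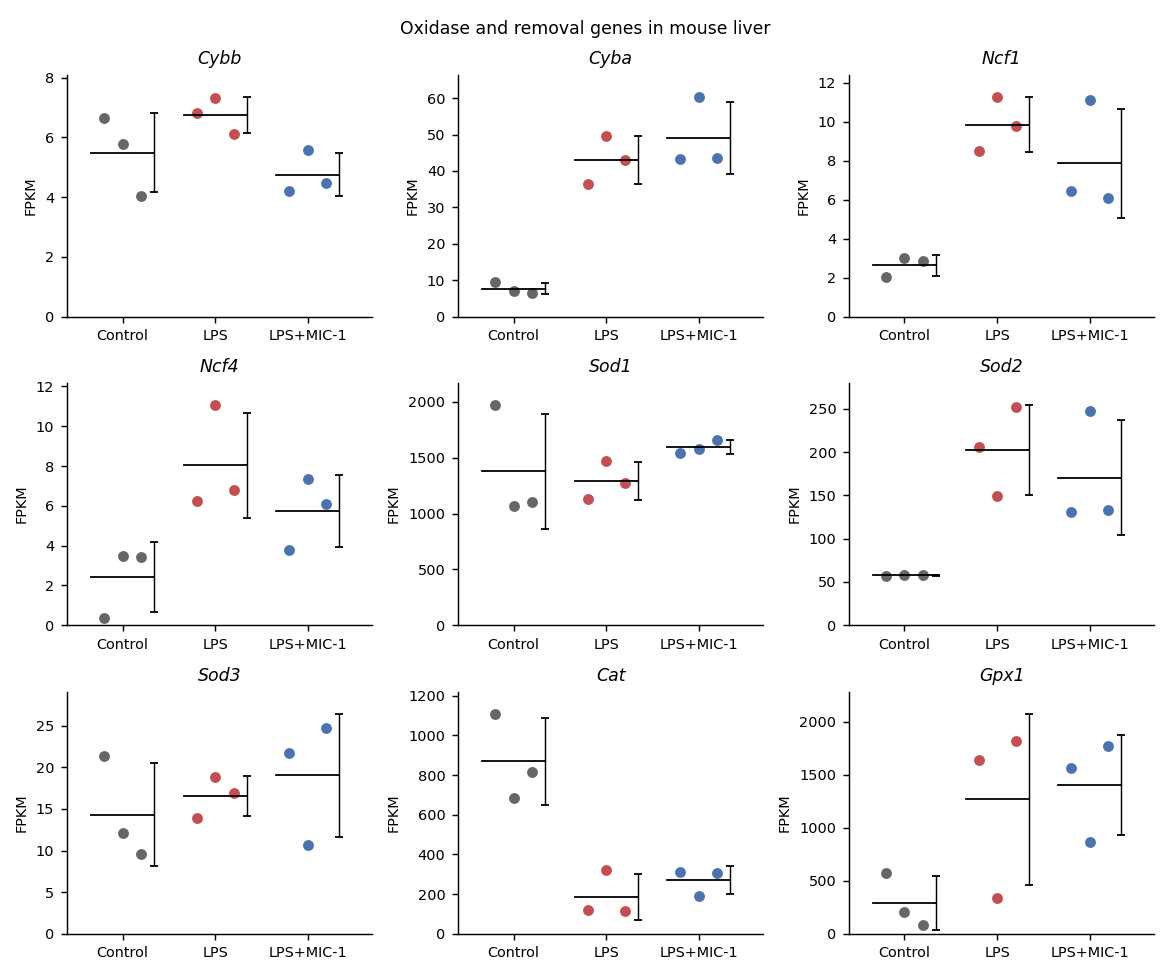
FPKM of the 9 genes in each liver library (points, libraries 1 to 3 from left to right within a treatment), with the mean (line) and SD (bar, drawn no lower than 0) of each treatment. Cyba, Ncf1, Ncf4 and Sod2 are higher and Cat is lower in all 3 LPS libraries than in all 3 controls, and library 2 of LPS and of LPS+MIC-1 stands apart from libraries 1 and 3 for Sod2, Cat and Gpx1.

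Between LPS+MIC-1 and LPS in liver, 0 of the 9 genes passed with limma, nor did any of the 10147 tested (0%), while 3.59% of all genes and 0 of the 9 had an unadjusted p-value below 0.05. The nearest was Cybb, with a Log2FC of -0.47 (SE 0.21, 95% interval from -0.95 to 0.0081), whose 3 LPS+MIC-1 values were all below its 3 LPS values; 4.64% of all genes were separated in this direction. Sod1 was separated upwards (Log2FC 0.31, interval -0.30 to 0.93; 5.1% of all genes). The intervals of the others do not show that the groups were alike: they ran from -0.32 to 0.68 for Cyba, -0.93 to 0.24 for Ncf1, -1.75 to 0.84 for Ncf4, -0.95 to 0.38 for Sod2, -0.27 to 1.63 for Cat and -1.42 to 2.25 for Gpx1. In Sod2 and Cat library 2 of each treatment lay toward the other treatment, and in Gpx1 library 2 was the lowest of both treatments. Without both these libraries, a choice made after the values were seen, Sod2 (-0.79, adjusted p = 0.0494) and Cat (1.39, adjusted p = 0.0424) passed between LPS+MIC-1 and LPS, against 3.68% of all genes. With sample quality weights, which set less store by divergent libraries, 5 members passed: Cybb (-0.53), Ncf1 (-0.48), Sod2 (-0.74), Sod1 (0.40) and Cat (1.33), against 30.2% of all genes.

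Set against the controls, LPS+MIC-1 livers differed in 5 of the 9 genes, where 36.4% of all genes passed (20.1% higher, 16.3% lower). Cyba (Log2FC 2.60, SE 0.22, limma adjusted p = 0.000439), Ncf1 (1.38, SE 0.26, 0.00607) and Sod2 (1.49, SE 0.29, 0.0072) were higher and Cat (-1.68, SE 0.42, 0.0157) was lower, though not with libraries 1 and 3 averaged (-1.80, adjusted p = 0.0547). Gpx1 was also higher (2.63, SE 0.80, adjusted p = 0.0337), a call that was lost without control library 2 (2.58, 0.0887), control library 3 (1.98, 0.11), LPS+MIC-1 library 1 (2.52, 0.0934) or LPS+MIC-1 library 3 (2.43, 0.102). Sod1, at 0.27, passed only without control library 1 (0.56, adjusted p = 0.0435). With an equal sum the median of all genes moved from 0.15 to -0.43 in this comparison and from 0.15 to -0.18 between LPS and control, and the share of higher genes among those that passed from 55.2 to 17.6% and from 55.3 to 31.2%. Cyba and Cat still passed in both comparisons. Between LPS+MIC-1 and control, Ncf1 (0.80), Sod2 (0.84) and Gpx1 (1.98) no longer passed and Cybb passed as lower (-0.77, adjusted p = 0.0173).

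**Figure D3:**
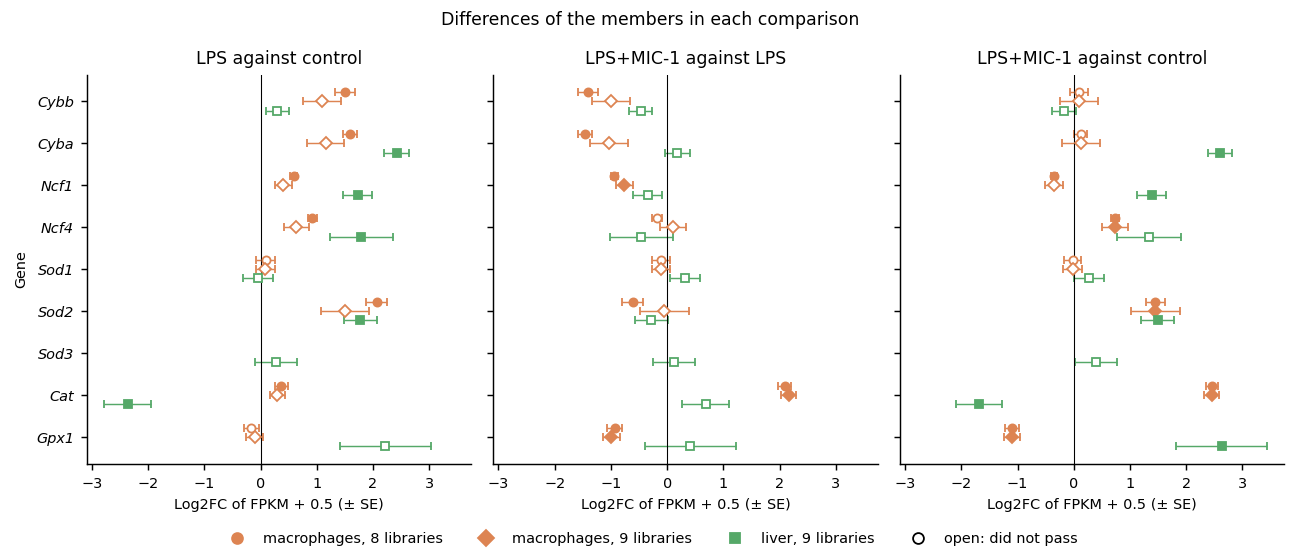
Log2FC of each gene (x axis, difference of log2(FPKM + 0.5), with SE) in the 3 comparisons, for macrophages over 8 libraries (circles) and 9 (diamonds) and for liver (squares); open symbols did not pass an adjusted p-value of 0.05. Between LPS and control Cat was at 0.37 in macrophages (-0.61 with an equal sum) and -2.37 in liver, and between LPS+MIC-1 and LPS the liver symbols are all open.

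Cat and Gpx1, the 2 peroxide removal genes among the members, are not the only ones, and the peroxiredoxins given below are left out here. They were compared within each library as the share of Cat in the summed FPKM of Cat and Gpx1, which no scaling between libraries can move. In macrophages it was 5.49, 5.90 and 5.97% in control, 8.14, 6.33 and 8.26% after LPS and 42.9, 41.3 and 42.8% after LPS+MIC-1. It was higher with LPS+MIC-1 than with LPS by 34.1 percentage points over the 8 libraries and 34.8 over the 9, with no overlap. In liver the share was 66.0, 77.2 and 90.4% in control, 6.80, 48.5 and 6.00% after LPS and 16.7, 18.1 and 14.8% after LPS+MIC-1. It was lower after LPS by 57.4 percentage points (a difference of -57.4), again with no overlap, while LPS+MIC-1 and LPS overlapped (-3.91 points, exact permutation test, two-sided, p = 1). Each separated pair of groups for this share gave p = 0.1 in the same exact permutation test, the smallest that 3 against 3 or 2 against 3 libraries allow, so this design cannot pass 0.05. Of the 12 comparisons of this and the following share, 9 reached that value, and the smallest Benjamini-Hochberg adjusted exact permutation p over the 12 was 0.133.

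The share of Sod2 in the summed FPKM of the 3 dismutase genes was 11.0, 16.1 and 12.1% in control macrophages, 37.7, 15.5 and 36.3% after LPS and 33.2, 22.1 and 33.5% after LPS+MIC-1. Over the 8 libraries it was higher than in control by 23.9 percentage points with LPS and by 16.5 with LPS+MIC-1 (exact permutation p = 0.1 each), and LPS+MIC-1 and LPS differed by -7.41 points (exact permutation p = 0.3; 16.7 and -0.24 points for LPS against control and LPS+MIC-1 against LPS over the 9 libraries). In liver it was 2.76, 5.12 and 4.97% in control, 15.3, 9.11 and 16.4% after LPS and 7.69, 13.5 and 7.33% after LPS+MIC-1, with no overlap between control and either treatment.

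**Figure D4:**
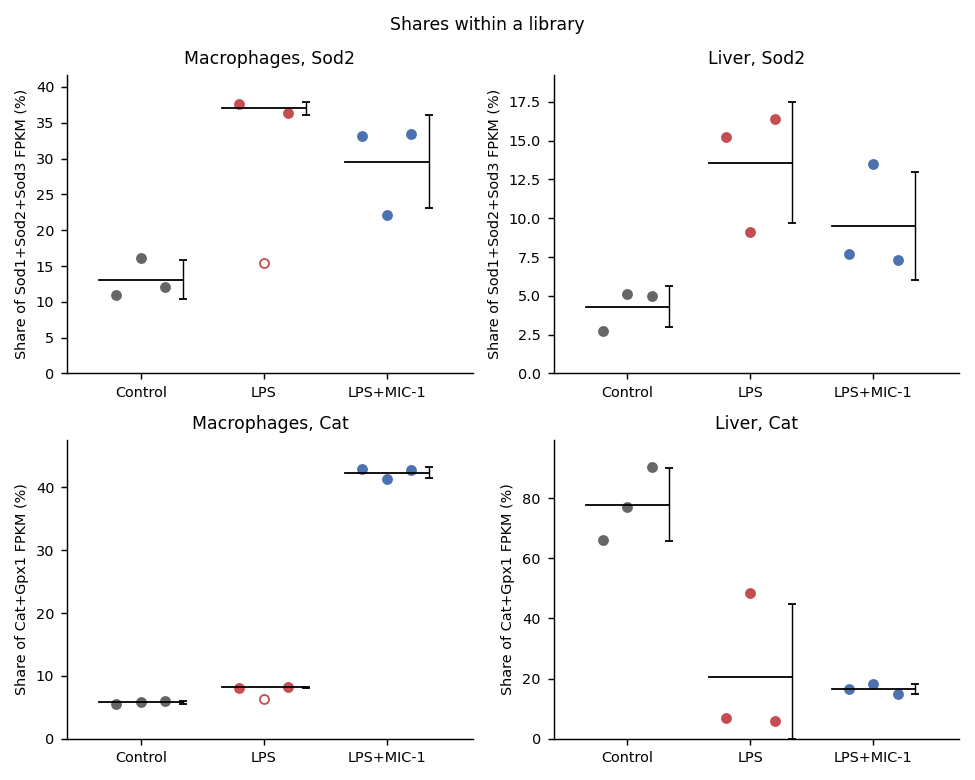
Share of Sod2 in the FPKM of Sod1, Sod2 and Sod3 (top) and of Cat in the FPKM of Cat and Gpx1 (bottom), in percent, in each library (points; the open point is macrophage LPS library 2), with mean (line) and SD (bar, drawn no lower than 0). The Cat share is 41.3 to 42.9% in the macrophage LPS+MIC-1 libraries against at most 8.26% in the other macrophage libraries, and at least 66.0% in control livers against at most 48.5% in treated ones.

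Other genes of the same pathway were taken from 2 lists. Of 15 further oxidase genes 13 had a row and 6 were tested in macrophages, where over the 8 libraries 3 were higher and 1 lower with LPS (median Log2FC 0.39, against -0.025 for all genes) and 2 were higher and 3 lower with LPS+MIC-1 than with LPS (median -0.24, against 0.012). Of all tested genes 75.2% and 68% passed in these 2 comparisons. Under equal-sum scaling the counts of the 6 genes were 1 higher and 3 lower, and 4 higher and 0 lower, against 82.8% and 77.8% of all genes passing. Rac2, the GTPase that works with the phagocyte oxidase, was higher with LPS (1.74, limma adjusted p = 4.91e-06) and lower with MIC-1 (-0.84, 0.000236). The proton channel gene Hvcn1 was higher with LPS+MIC-1 than with LPS (1.89, limma adjusted p = 0.000125). It was at 0.579, 0.930 and 0.618 FPKM after LPS and 3.84, 3.17 and 3.76 after LPS+MIC-1. Over the 9 libraries Hvcn1 (1.77) still passed and Rac2 (-0.38) did not, and with an equal sum they were at 2.36 and -0.040. In liver 5 were tested. Rac1 (1.31, limma adjusted p = 0.0139) and Rac2 (1.22, 0.00174) were higher and Rap1a (-0.72, 0.0275) was lower with LPS, where 34.7% of all genes passed. None passed between LPS+MIC-1 and LPS, nor did any other gene (0%).

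Of 15 further removal genes all had a row and 9 were tested in macrophages. With LPS 7 were higher and 2 lower (median 0.52, against -0.025 for all genes). With LPS+MIC-1 against LPS 2 were higher and 6 lower (median -0.56, against 0.012). Equal-sum scaling turned these counts to 2 higher and 7 lower (median -0.47, against -0.93), and to 5 higher and 2 lower (median 0.25, against 0.74). Of all tested genes 75.2% and 68% passed in these 2 comparisons, and 82.8% and 77.8% with an equal sum. Prdx1, a cytosolic peroxiredoxin, was at 722, 872 and 691 FPKM in the controls, 2009.5, 853 and 2153 after LPS and 6438, 8925 and 6123 after LPS+MIC-1, more than any member. Its Log2FC was 1.46 with LPS (limma adjusted p = 0.000128) and a further 1.76 with MIC-1 (6.84e-05; 2.19 and 0.00579 over the 9 libraries). Prdx5 was higher with LPS (3.74, adjusted p = 2.8e-05) and lower with MIC-1 (-1.53, 0.00431), and Prdx4 (-1.02), Gpx4 (-0.99) and Prdx2 (-0.99) were lower with MIC-1 as well. Over the 8 libraries Cat, Prdx1 and Ccs (0.34), the copper chaperone gene of Sod1, named here after its value was seen, passed as higher with MIC-1. Over the 9 libraries Prdx5 (-0.53) no longer passed. With an equal sum Prdx1 was at 0.46 with LPS and 2.57 with MIC-1, and Prdx5 at 2.75 and -0.72. Gpx4 (-0.28), Prdx2 (-0.65), Prdx4 (-0.47), Txn2 (-0.42) and Prdx6 (-0.62, also named after its value was seen) then turned lower with LPS, and with MIC-1 Prdx4 was at -0.22, Gpx4 at -0.19, which no longer passed, and Prdx2 at -0.19. In liver 12 were tested. Gpx3 (1.42, limma adjusted p = 0.0402), Prdx1 (1.40, 0.036) and Prdx3 (1.21, 0.0173) were higher and Ccs (-1.25, 0.0221) was lower with LPS (1 higher and 1 lower with an equal sum). Of all liver genes 34.7% passed with LPS, and 35.4% with an equal sum. None of the 12 passed between LPS+MIC-1 and LPS, nor did any other gene (0%).

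The genes whose log2(FPKM + 0.5) followed a member most closely were also listed, as a description, since all points share libraries and treatments. Over the 8 macrophage libraries these were Rasa4, Zfpm1 and Saa3 for Cybb (Pearson r = 0.996, 0.995 and 0.995), Rhoc, Prr13 and Slc31a2 for Sod2 (0.999, 0.998 and 0.998) and Hspa5, Trib3 and Pla2g7 for Cat (0.998, 0.997 and 0.997). Over the 9 liver libraries they were Zfpl1, Cd84 and Nsa2 for Cybb (0.935, 0.881 and 0.874), Cml2, Crybb3 and Aimp2 for Sod2 (0.997, 0.992 and 0.992) and Hibadh, Nqo2 and Tecr for Cat (0.995, 0.994 and 0.991).

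Levels per length ordered the members differently in the 2 sources of RNA, whose tables were scaled separately and were not tested against each other. In control macrophages the mean FPKM was 637 ± 93.4 for Cyba, 479 ± 22.2 for Sod1, 444 ± 5.98 for Gpx1, 223 ± 37.3 for Cybb, 169 ± 5.31 for Ncf1, 151 ± 13.9 for Ncf4, 72.6 ± 18.8 for Sod2 and 27.3 ± 1.08 for Cat (SD, n = 3 each). Of the neighbours in this order the ranges of Ncf1 and Ncf4 overlapped and those of the others did not, the closest being Sod1 and Gpx1, at 453 FPKM or more and 448 or less. Sod3 was at or near 0. In control liver the order was Sod1 (1379 ± 513), Cat (870 ± 218), Gpx1 (287 ± 254), Sod2 (57.6 ± 0.886), Sod3 (14.3 ± 6.24), Cyba (7.68 ± 1.55), Cybb (5.49 ± 1.33), Ncf1 (2.64 ± 0.534) and Ncf4 (2.42 ± 1.77). There the ranges of Sod1 and Cat, of Cyba and Cybb, and of Ncf1 and Ncf4 overlapped, whereas those of Gpx1 and Sod2 did not.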

How the data were processed

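The authors sequenced the libraries at BGI, pseudoaligned reads with kallisto 0.45.0 to RefSeq transcripts of mm9, and made the deposited FPKM tables with DESeq2 1.20.0 (versions per the submitters' processing notes). Libraries of a table share a scaling; the macrophage and liver tables were scaled separately. The 6 deposited tables of the authors' own comparisons, with fold changes and p-values, were not used. FPKM is not a count, and the depths given were estimated from the steps between low values, so their precision is limited.

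Log2(FPKM + 0.5) was fitted with limma 3.58.1 in R 4.3.3 (eBayes with trend, all treatments of a table in 1 fit) for genes with a mean FPKM above 1, with Benjamini-Hochberg adjustment over all of them. The intervals are 95% intervals for each gene alone. Shares used two-sided exact permutation tests (Python 3.11.15). Members, gene lists, tests and the 8 macrophage libraries were chosen with earlier results of these data known. All 9 members were named; of the 2 lists of other pathway genes, up to 6 per table that passed with the largest absolute Log2FC. One gene of these lists is counted but not reported here by name. The alternatives were a pseudocount of 1, no filter, an equal sum, only the 2 groups compared, sample quality weights, each library left out, all 9 macrophage libraries, libraries 1 and 3 averaged, and the study's macrophage threshold (adjusted p below 0.01 and absolute Log2FC above 1); 3 more were chosen after seeing the data. On simulated data for LPS against control the fit recovered 76.6% of changes of 1 on the log2 scale and 95.3% of changes of 2 in macrophages (9905 genes). In liver (10147 genes) it recovered 19.2% and 70.3%. In these simulations 9705 and 9947 genes were unchanged, while 75.2% and 34.7% passed in the data. Noise was drawn independently for each library. The rates therefore do not give the power of the comparisons reported here.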

Additional observations from a re-analysis of the deposited data

Results flagged for a closer look

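For 4 member and comparison pairs every macrophage library moved one way and every liver library the other, relative to the controls of its table. How many of all genes did so was not counted, so these pairs have no share to be set against. Separation one way was common. Between LPS and control, 24.2% of liver genes were separated upwards and 20.8% downwards, and 42.2% of macrophage genes upwards over the 8 libraries. The pairs were taken over all 9 macrophage libraries, where this share was not counted for LPS against control. The downward macrophage share for LPS against control was not counted either. For LPS+MIC-1 against control no such share was counted in macrophages or liver. Cat was higher with LPS in macrophages (Log2FC 0.37, and 0.30 over the 9 libraries) and lower in liver (-2.37). With LPS+MIC-1 against control, Cat was higher in macrophages (2.46) and lower in liver (-1.68), Gpx1 was lower in macrophages (-1.10) and higher in liver (2.63), and Ncf1 was lower in macrophages (-0.35) and higher in liver (1.38). The difference between the sources of RNA was not tested, since the tables were scaled separately. With an equal sum the macrophage value of Cat with LPS turned to -0.61, the sign it had in liver.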

How the results depend on the processing

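No paired analysis was possible because the columns of the tables carry no replicate numbers. Counts are of members passing, in the order LPS against control, LPS+MIC-1 against LPS, LPS+MIC-1 against control. In macrophages the 6, 6 and 5 members passing became 0, 3 and 4 over all 9 libraries. They became 0, 0 and 0 with libraries 1 and 3 also averaged, and 3, 3 and 3 at the study's threshold. For LPS+MIC-1 against control they became 8 with sample quality weights and 8 with libraries 1 and 3 only. Of all genes, 75.2, 68 and 60.3% passed over the 8 libraries, 0, 21.6 and 24.8% over the 9, and 0, 0 and 0% with averaging. For LPS+MIC-1 against control the share of all genes was 76.9% with weights and 69.1% with libraries 1 and 3 only. At the study's threshold the share of all genes was not counted. In liver the 5, 0 and 5 became 3, 0 and 3 with libraries 1 and 3 of the treated groups averaged. Ncf4 and Cat were then lost from the first and Cat and Gpx1 from the third. The second became 5 with sample quality weights and 2 with treated libraries 1 and 3 only. The third became 3 with an equal sum, 8 with weights and 3 at the study's threshold. Of all liver genes, 34.7, 0 and 36.4% passed in the fit of all 9 libraries and 6.22, 0 and 13.9% with averaging. In the second the share was 30.2% with weights and 3.68% with treated libraries 1 and 3 only. In the third it was 41.2% with an equal sum and 73.6% with weights.

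Leaving out single libraries gave 5 to 7, 5 to 7 and 5 to 6 members passing in macrophages and 4 to 6, 0 and 4 to 6 in liver. The share of all genes passing then ran from 66.3 to 78.5, 56.8 to 69.6 and 51 to 63.7% in macrophages. In liver it ran from 13.8 to 49, 0 to 0.355 and 20.1 to 45.2%. Signs turned as single libraries were left out for Sod1 in macrophages (LPS+MIC-1 against LPS -0.29 to 0.0045, against control -0.20 to 0.091). In liver they turned for Sod1 (LPS against control -0.20 to 0.24), Sod3 (LPS+MIC-1 against LPS -0.11 to 0.48), Gpx1 (same comparison -0.37 to 0.84) and the Cat share (same comparison -11.1 to 10.1 points).

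With an equal sum, macrophage LPS against control turned for Ncf1 (-0.40), Ncf4 (-0.072), Sod1 (-0.90) and Cat (-0.61), LPS+MIC-1 against LPS for Ncf4 (0.62), Sod1 (0.70) and Sod2 (0.19), and LPS+MIC-1 against control for Cybb (-0.096) and Cyba (-0.063). In liver Cybb (-0.037) and Sod3 (-0.080) turned for LPS against control, Cyba (-0.11) and Sod3 (-0.16) for LPS+MIC-1 against LPS, and Sod1 (-0.39) and Sod3 (-0.24) for LPS+MIC-1 against control. All 9 macrophage libraries turned Ncf4 for LPS+MIC-1 against LPS (0.10). Averaging libraries 1 and 3 turned, in macrophages, Ncf4 (0.26) and Sod2 (0.18) for LPS+MIC-1 against LPS and Cybb (-0.060) and Sod1 (0.061) for LPS+MIC-1 against control, and in liver Sod1 (0.0065) for LPS against control and Sod3 (-0.11) for LPS+MIC-1 against LPS. With weights, liver Sod1 turned for LPS against control (0.13) and Gpx1 for LPS+MIC-1 against LPS (-0.044), as did Gpx1 with treated libraries 1 and 3 only (-0.057). The cause was not tested.

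Averaging leaves fewer samples to a fit. The shallow liver controls, at 4.75 to 10.7 M estimated reads, limit the values of Ncf4 and Cyba, with about 5 to 26.0 and 22.8 to 55.3 reads in a control.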
